A study of Mus musculus with 9 samples.

Results

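The genes described here are Trp53, which encodes the tumour suppressor p53, and 32 genes that p53 is known to activate. They were chosen by name from knowledge of the pathway, with earlier results of these data known. All 33 were found among the 18423 genes of the expression table. Glands of the mouse stomach corpus, from sites with tumours or from matching sites of normal stomachs, gave poly(A) RNA for 3 groups of 3 libraries. WT was wild type. Ctrl had the genotype Atp4bCre; Rosa26NICD, in which Cre recombinase from the promoter of Atp4b, a gene of the acid-secreting parietal cell, goes with NICD, the intracellular domain of Notch and the active form of that receptor, encoded at Rosa26. Arid1a_Het had the genotype Atp4bCre; Rosa26NICD; Arid1aflox/+, which adds 1 copy of Arid1a that Cre can delete; Arid1a encodes a DNA-binding subunit of the SWI/SNF chromatin remodelling complex. Cre and the NICD allele were thus shared by Ctrl and Arid1a_Het, and the comparison of Arid1a_Het with Ctrl is the one that bears on whether loss of Arid1a alters a p53 response to NICD. Among the 9 libraries none carried the Arid1a allele without NICD, so an interaction of the 2 could not be tested. In comparisons with WT, Cre, NICD and any sampling at sites with tumours cannot be told apart, and "with NICD" below names the genotype only. The labels give no age or sex, and nothing in them states that each library is a different mouse; p-values therefore measure the spread between libraries, which may be technical.

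In unstressed cells p53 protein is kept low by Mdm2, a ubiquitin ligase, and by its partner Mdm4. DNA damage or oncogene signalling, the latter through the Arf product of Cdkn2a, frees p53 from Mdm2, and p53 then switches on genes for cell cycle arrest, cell death, DNA repair and metabolism, and Mdm2 itself as a brake. Control of p53 is mainly at the protein, which RNA sequencing does not measure, so RNA levels of its targets are a readout of its activity that other factors also set. In the stomach, p53 is best known as a gene mutated in gastric cancer.

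Levels are in FPKM (fragments relative to gene length and library depth), so they can be compared between genes. Fold changes (log2FC) are differences of group means of log2(FPKM + 1), a scale on which low genes appear to change less than they do. A gene was called changed at a Benjamini-Hochberg adjusted p under 0.05 in limma, over the 11209 genes that reached 1 FPKM in 3 or more libraries. Of the 33 members 31 were tested, and Gdf15 and Eda2r were not. Library totals, worked back from the FPKM values and close to the reads summed over the genes, were 22674448 to 29503156 reads. Arid1a stood at 13.5, 7.79 and 12.0 FPKM in WT 1 to 3, at 14.9, 13.3 and 16.2 in Ctrl and at 8.94, 5.90 and 6.96 in Arid1a_Het. All Arid1a_Het libraries lay below all Ctrl libraries, with a log2FC of -0.95 (95% interval -1.44 to -0.46) that missed the threshold in limma (adjusted p = 0.299), and the exact permutation test (two-sided, 3 against 3 libraries) gave p = 0.1, the smallest it can give.

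Several properties of the libraries differed between them. WT 2 and Arid1a_Het 2 stood apart, with Pgc, which encodes the chief cell product pepsinogen C, at 16.5% and 17.9% of all FPKM against 1.49% to 8.38% elsewhere. WT 2 was the lowest WT library for 20 of the 31 tested members (64.5%, against 69.0% of all tested genes), and Arid1a_Het 2 the lowest of its group for 23 of 31 (74.2%, against 61.9%). The median log2FC of all tested genes was 0.24 in Ctrl against WT and -0.16 in Arid1a_Het against Ctrl. With median-ratio scaling it was 0.01 and 0.02. Of the genes called in Ctrl against WT, 69.7% were higher, against 50.9% with median-ratio scaling, 44.7% with quantile normalization and 61.9% with totals that leave out the 50 highest genes. Markers of parietal cells (10 of 10 in the table) summed to 2897 to 14163 FPKM in WT, 284 to 1116 in Ctrl and 476 to 4900 in Arid1a_Het. Mast cell markers (4 of 4) summed to 25.3 to 57.8 in WT, 356 to 639 in Ctrl and 400.3 to 667 in Arid1a_Het. Enteroendocrine markers (6 of 6) summed to 517 to 641, 56.9 to 119 and 49.1 to 163. Both sums separated WT from all libraries with NICD, though not every marker in them did. Pit cell markers (6 of 6) summed to 68468 to 93688 in WT, 37483.5 to 44690 in Ctrl and 44972 to 79937 in Arid1a_Het. Every Ctrl library was thus below every other library, though Arid1a_Het 3 was close to Ctrl. Between Ctrl and Arid1a_Het, Gkn2 and Psca separated, while Gkn1, Tff1, Muc5ac and Krt20 overlapped. Pit markers had 0 calls in that comparison, and 1 higher and 2 lower in Ctrl against WT. In Ctrl against WT 2 mast cell markers were called higher and 1 lower, and 4 enteroendocrine and 6 parietal markers lower. Markers of squamous forestomach (9 of 9), of which 2 were called higher, overlapped between the groups and summed to 46.3 to 508 in WT, 289 to 796 in Ctrl and 240.0 to 1045 in Arid1a_Het. Markers of the exocrine pancreas (9 of 10 in the table) summed to 2981 in Ctrl 1 and 1175 in Arid1a_Het 3 but to 0.613 to 6.36 in the other 7. The part that cell makeup plays in the results below was not tested, and in RNA from whole glands fewer cells of a type and less RNA per cell cannot be told apart.

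The first comparison, Ctrl against WT, asks how p53 and its targets stood in glands with NICD. Of the 31 tested members 4 rose and 0 fell: Phlda3, Plk2, Psrc1 and Bax. Over all tested genes 7.01% were called higher and 3.04% lower, or 10.1% in either direction. The log2FC was above 0 for 24 of 31 members and for 71.3% of all tested genes. The members called higher made up 12.9% of those tested, a difference from the background that was not tested. Among these 4, Psrc1 reached 1 FPKM only in libraries with NICD and entered the test through them. The median log2FC of the members, 0.29, was near the 0.24 of all tested genes. With median-ratio scaling the median of the members was 0.09, and with quantile normalization 0.00. At an unadjusted p under 0.05, 9 members were higher and 1 lower, where all tested genes had 23.7% and 8.44%. The 3 Ctrl libraries lay wholly above the 3 WT libraries for 13 members and wholly below for 2, against 33.5% and 10.2% of all tested genes. The replicate number as a block ties same-numbered libraries of all 3 groups, though no label states a pairing. With it, 9 members were called higher: the 4 above and Trp53, Mdm2, Mdm4, Apaf1 and Aen. The count was 1 without WT 2 or without any 1 Ctrl library, 2 without WT 3 and 7 without Arid1a_Het 2. It was 2, Bax and Phlda3, without the libraries with pancreas markers, Ctrl 1 and Arid1a_Het 3.

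**Figure D1:**
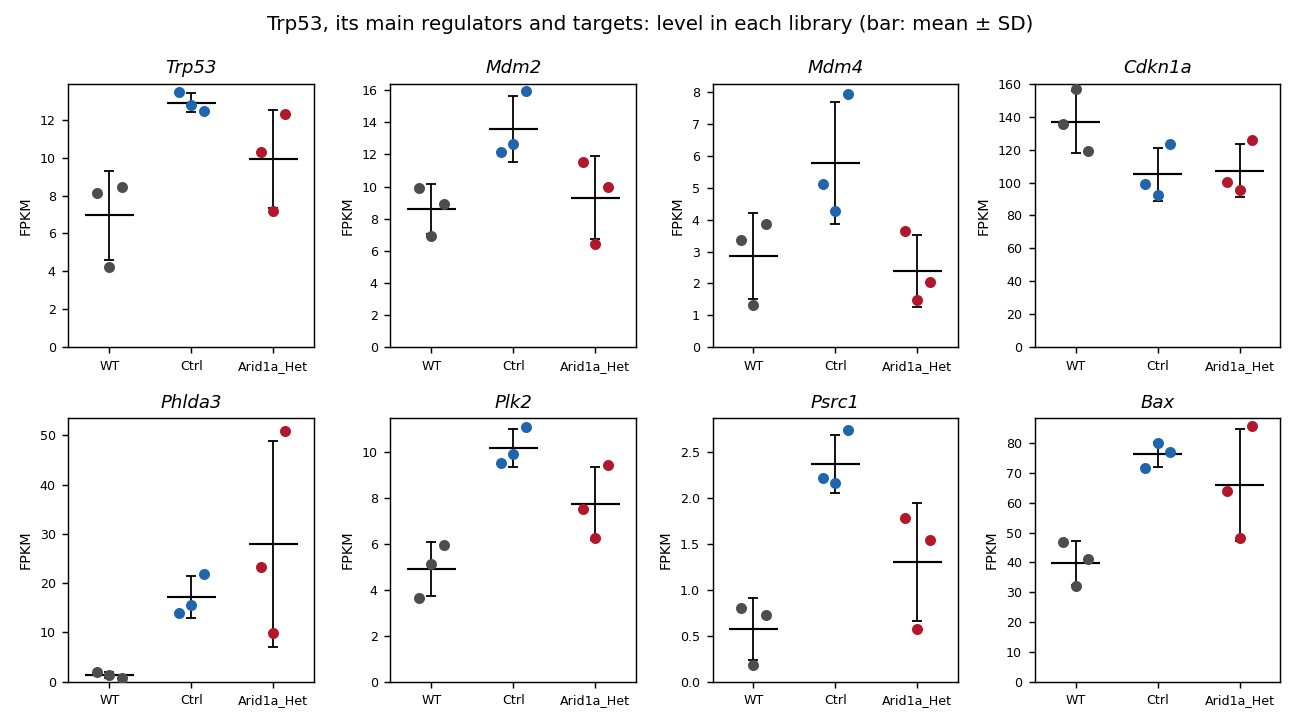
FPKM of Trp53, its regulators Mdm2 and Mdm4, Cdkn1a and the 4 members called in Ctrl against WT, by group; each point is 1 library and bars give the mean ± SD (n = 3). Phlda3 lies between 0.828 and 1.88 in WT and between 9.86 and 51.0 in the 6 libraries with NICD, while Cdkn1a is no higher on average in Ctrl or Arid1a_Het than in WT.

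In the core of the pathway no gene passed the threshold. Trp53 itself (chr11:69580359-69591873, plus strand, GRCm38) stood at 8.16, 4.24 and 8.45 FPKM in WT 1 to 3, at 13.5, 12.8 and 12.5 in Ctrl and at 10.3, 7.19 and 12.3 in Arid1a_Het. All Ctrl libraries lay above all WT libraries, with a log2FC of 0.86 (SE 0.26; adjusted p = 0.0631 in limma; p = 0.1 in the exact permutation test). Trp53 passed with median-ratio scaling (adjusted p = 0.0472), with quantile normalization (adjusted p = 0.0438) and with the replicate block (adjusted p = 0.0200). Mdm2 (chr10:117688875-117710758, minus strand), the ligase that p53 switches on against itself, was at 9.92, 6.90 and 8.94 FPKM in WT, 12.2, 12.6 and 15.9 in Ctrl and 11.5, 6.45 and 9.94 in Arid1a_Het. Its groups WT and Ctrl did not overlap either, and its log2FC of 0.61 had an adjusted p of 0.104 in limma, or 0.0426 with the replicate block. Mdm4, which binds and silences p53, was at 3.36, 1.33 and 3.87 FPKM in WT, 5.13, 4.29 and 7.94 in Ctrl and 3.64, 1.47 and 2.03 in Arid1a_Het. It had a log2FC of 0.85 (adjusted p = 0.127 in limma, 0.0394 with the replicate block). Ppm1d, the phosphatase Wip1 that turns p53 signalling off, kept to 4.08 to 6.20 FPKM in WT and 5.76 to 5.90 in Ctrl, groups that overlapped. Trp53 and Mdm4 each have a processed pseudogene in the annotation, so that their levels are less certain where reads matched both copies.

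Among the cell cycle genes Plk2 and Psrc1 rose and Cdkn1a did not. Cdkn1a, which encodes the cyclin-dependent kinase inhibitor p21 and is the textbook target of p53, was among the most abundant members in all 9 libraries. It stood at 135, 157 and 119 FPKM in WT, 99.2, 92.5 and 123 in Ctrl and 100.4, 95.6 and 126 in Arid1a_Het. Its levels in Ctrl overlapped those in WT and were lower on average, with a log2FC of -0.38 (95% interval -0.78 to 0.01; adjusted p = 0.166 in limma; p = 0.2 in the exact permutation test). Plk2, a polo-like kinase, was at 3.64, 5.14 and 5.93 FPKM in WT, 9.49, 9.91 and 11.1 in Ctrl and 7.52, 6.27 and 9.44 in Arid1a_Het. Every Ctrl library exceeded every WT library, at 2.07 times the mean, with a log2FC of 0.94 (SE 0.20; adjusted p = 0.0218 in limma). Psrc1, a microtubule-binding protein of the mitotic spindle, was low throughout, at 0.806, 0.181 and 0.729 FPKM (63, 16 and 57 reads) in WT, 2.22, 2.17 and 2.74 (169, 215 and 249 reads) in Ctrl and 1.78, 0.578 and 1.54 in Arid1a_Het. It had a log2FC of 1.12 (SE 0.26; adjusted p = 0.0273 in limma), and as no WT library reached 1 FPKM it entered the test only through the libraries with NICD. Plk2 missed the threshold with median-ratio scaling (adjusted p = 0.0590) and with quantile normalization (0.0619), as did Psrc1 with quantile normalization (0.0526). Without WT 2 or without Ctrl 1, 2 or 3 the adjusted p of Plk2 was 0.0516, 0.0629, 0.0615 and 0.0859, and that of Psrc1 0.0852, 0.0754, 0.0661 and 0.105; without WT 3 it was 0.0603 for Psrc1. Btg2, an antiproliferative cofactor, and Ccng1, which encodes cyclin G1, overlapped between the groups, Btg2 at 48.7 to 61.9 FPKM in WT and 56.1 to 64.4 in Ctrl and Ccng1 at means of 50.7 in WT and 49.6 in Ctrl. Gdf15, a secreted stress cytokine, was under the filter, at 0.103 to 0.233 FPKM in WT and 0.476 to 1.74 in Ctrl.

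The highest log2FC of the tested members was that of a cell death gene. Phlda3 (chr1:135766119-135769136, plus strand), whose product competes with the kinase Akt for membrane lipids and so holds back survival signalling, stood at 1.88, 1.39 and 0.828 FPKM (68, 57 and 30 reads) in WT. It was at 13.9, 15.6 and 21.9 FPKM in Ctrl and at 23.2, 9.86 and 51.0 in Arid1a_Het. The Ctrl mean was 12.6 times the WT mean, with a log2FC of 2.94 (SE 0.48, 95% interval 1.87 to 4.01; adjusted p = 0.00871 in limma). Phlda3 was called in this comparison under all 20 alternatives tried. The mast cell marker sum was higher, and the enteroendocrine sum lower, in every library with NICD than in any WT library. Single markers differed: Mcpt1 and Mcpt2 went with the mast cell sum, Kit went the other way in every library, and Cpa3 overlapped. Chga, Sst and Ghrl went with the enteroendocrine sum, while Chgb, Syp and Hdc overlapped. The level of Phlda3 and the squamous marker sum were both highest in Arid1a_Het 3. In WT 1 and Arid1a_Het 2, however, the squamous sum was 508 and 240.0, with Phlda3 at 1.88 and 9.86 FPKM. The part of these cell types in the difference was not tested. Bax (chr7:45461697-45466898, minus strand), which opens the mitochondrial outer membrane in apoptosis, was at 46.7, 32.0 and 41.1 FPKM in WT, 71.7, 80.0 and 76.9 in Ctrl and 63.9, 48.2 and 85.6 in Arid1a_Het. Its Ctrl mean was 1.91 times the WT mean, with a log2FC of 0.93 (SE 0.22; adjusted p = 0.0292 in limma). The adjusted p of Bax was 0.0941 without WT 2, 0.0739 without WT 3, and 0.0749, 0.0831 and 0.0978 without Ctrl 1, 2 and 3. Bax overlaps a gene model on its own strand in the annotation, so reads of the pair may not be told apart.

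Other death genes did not pass the threshold. Aen, a nuclease of apoptotic cells, was at 3.01, 1.49 and 3.11 FPKM in WT and 5.51, 5.04 and 7.62 in Ctrl, with a log2FC of 1.02 (adjusted p = 0.0570 in limma, 0.00839 with the replicate block). Apaf1, the scaffold of the apoptosome, was at 3.63, 2.18 and 2.60 FPKM in WT and 5.18, 4.85 and 4.98 in Ctrl, with a log2FC of 0.68 (adjusted p = 0.0661 in limma, 0.0260 with the replicate block). In both, every Ctrl library exceeded every WT library. The p53-induced BH3-only killers did not separate in that way. Bbc3, which encodes Puma, lay at 1.40 to 2.12 FPKM in WT and 1.88 to 2.38 in Ctrl, and Pmaip1, which encodes Noxa, at 7.06 to 10.6 and 10.2 to 12.4. The death receptor Fas was at 2.78 to 4.04 FPKM in WT and 3.88 to 4.89 in Ctrl, and the desmosome gene Perp at 117 to 197 and 182 to 207. Eda2r, a receptor of the tumour necrosis factor family on the X chromosome, was below 1 FPKM in every library and so not tested. It had 12, 11 and 5 reads in WT, 68, 76 and 129 in Ctrl and 62, 27 and 156 in Arid1a_Het, so that the libraries with NICD all lay above WT. Of the rest, Trp53inp1 and Zmat3 overlapped between WT and Ctrl, Rps27l, whose ribosomal protein family has near-identical copies that make its level uncertain, was higher in every Ctrl library (83.3 to 102 FPKM) than in WT (70.6 to 78.2), and Ei24, a membrane protein of the endoplasmic reticulum, was lower in every Ctrl library (37.5 to 44.5) than in WT (46.2 to 49.5).

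No member of the repair or metabolic groups was called in limma. Of the 5 DNA repair genes, Ddb2, which recognises ultraviolet lesions, lay at 1.49 to 3.49 FPKM in WT and 3.74 to 4.15 in Ctrl. Polk, a translesion polymerase, lay at 3.29 to 8.31 and 8.57 to 14.8. The nuclease gene Ercc5 lay at 2.13 to 3.53 and 3.54 to 4.15. These 3 did not overlap between the groups. Ddb2 and Polk share their loci with genes on the opposite strand, and whether reads were counted by strand is not given in the sources used here. Rrm2b, the p53-inducible subunit of ribonucleotide reductase, went the other way, at 2.19 to 2.82 FPKM in WT and 1.53 to 1.66 in Ctrl, and was called lower with quantile normalization. Xpc, a sensor of damaged DNA, was at 3.04 to 4.43 in WT and 3.72 to 3.99 in Ctrl. All 5 metabolic and redox genes overlapped between WT and Ctrl: Tigar, which lowers glycolytic flux, at 9.12 to 14.8 and 8.23 to 12.2 FPKM; the stress-induced Sesn1 at 2.91 to 3.98 and 2.25 to 3.33; Sesn2 at 1.99 to 2.78 and 2.63 to 3.26; the mitochondrial reductase Fdxr at 3.53 to 5.40 and 3.92 to 5.01; and the epoxide hydrolase Ephx1 at 26.9 to 35.6 and 30.0 to 33.3.

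**Figure D2:**
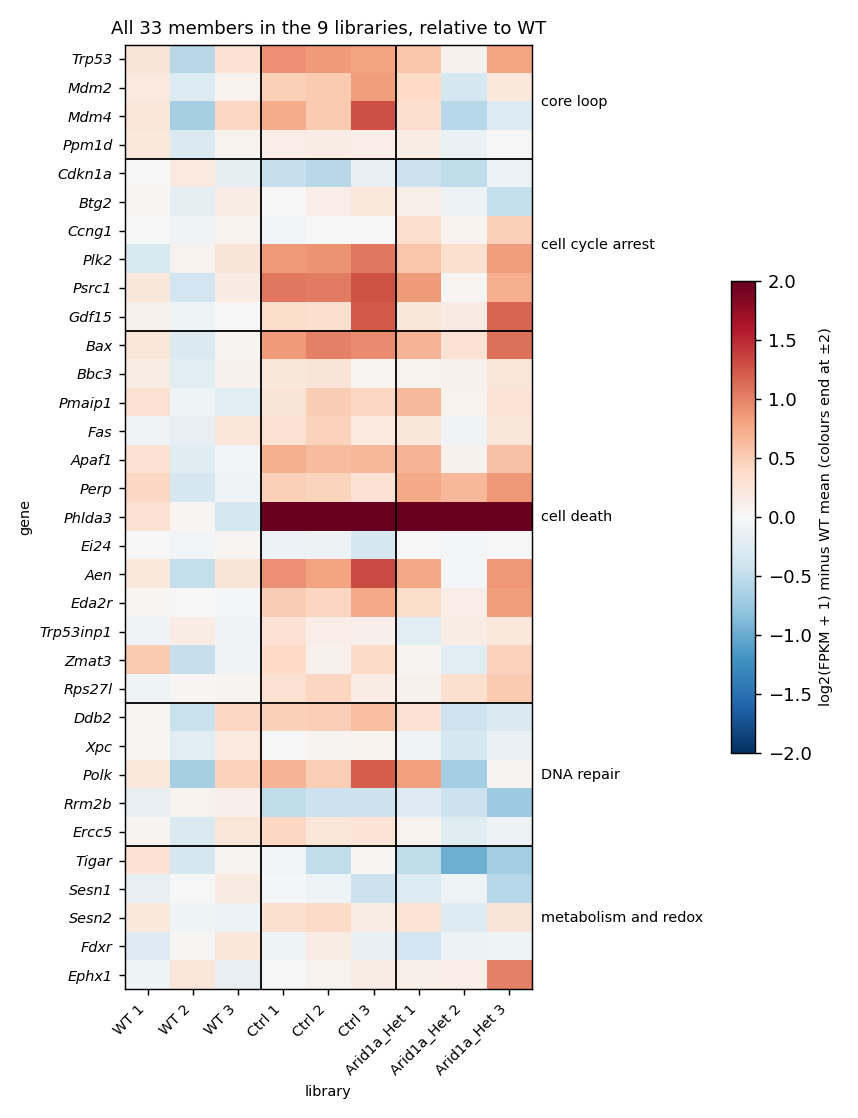
log2(FPKM + 1) of each of the 33 members minus its mean in WT, in the 9 libraries; colours end at ±2. Phlda3 is at the upper end of the colours in all 6 libraries with NICD, and the columns of WT 2 and Arid1a_Het 2 are lower than their neighbours for most members.

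The promoters of the 4 members that rose, and of Cdkn1a, are shown to let the sequence be read beside these levels. Each run is the 250 bases before the RefSeq transcription start in GRCm38.p6, 5′ to 3′ on the strand of the gene, with 2 motifs in capitals where they occur: the p53 response element decamer, which reads the same on both strands, and TGGGAA (or its complement TTCCCA), the core of the site bound by RBPJ, the DNA-binding partner of NICD. The windows are chr1:135765835-135766084 on the plus strand for Phlda3, chr13:110394794-110395043 on the plus strand for Plk2, chr3:108383554-108383803 on the plus strand for Psrc1, chr7:45466899-45467148 on the minus strand for Bax and chr17:29090729-29090978 on the plus strand for Cdkn1a.
Phlda3: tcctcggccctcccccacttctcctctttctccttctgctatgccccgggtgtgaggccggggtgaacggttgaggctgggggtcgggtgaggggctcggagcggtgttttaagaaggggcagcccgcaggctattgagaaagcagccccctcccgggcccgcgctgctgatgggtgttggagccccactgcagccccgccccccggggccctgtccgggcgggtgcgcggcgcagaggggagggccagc
Plk2: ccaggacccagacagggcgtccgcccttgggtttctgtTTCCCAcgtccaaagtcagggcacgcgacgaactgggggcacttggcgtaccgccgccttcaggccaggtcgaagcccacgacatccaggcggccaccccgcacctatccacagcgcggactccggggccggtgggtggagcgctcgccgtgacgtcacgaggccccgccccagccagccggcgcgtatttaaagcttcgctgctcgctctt
Psrc1: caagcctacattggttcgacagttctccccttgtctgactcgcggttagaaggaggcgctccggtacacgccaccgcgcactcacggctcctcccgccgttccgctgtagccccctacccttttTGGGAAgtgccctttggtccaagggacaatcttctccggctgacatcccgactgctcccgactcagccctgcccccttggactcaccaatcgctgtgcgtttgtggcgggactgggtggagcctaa
Bax: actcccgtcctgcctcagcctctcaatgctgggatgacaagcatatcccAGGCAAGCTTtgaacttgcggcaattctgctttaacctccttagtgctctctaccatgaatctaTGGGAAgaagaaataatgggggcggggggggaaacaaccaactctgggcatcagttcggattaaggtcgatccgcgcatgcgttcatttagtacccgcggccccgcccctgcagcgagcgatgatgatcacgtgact
Cdkn1a: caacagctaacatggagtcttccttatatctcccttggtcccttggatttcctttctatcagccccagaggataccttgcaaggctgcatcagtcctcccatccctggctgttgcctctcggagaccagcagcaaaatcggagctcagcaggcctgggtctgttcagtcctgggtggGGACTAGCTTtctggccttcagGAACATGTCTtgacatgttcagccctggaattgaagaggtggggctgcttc
The Phlda3 window held neither motif. Those of Plk2 and Psrc1 held the RBPJ core but no p53 decamer, that of Bax held both, and that of Cdkn1a held 2 p53 decamers. Cdkn1a and Psrc1 each have 2 starts in the table, and 1 is shown. The window with more p53 decamers was taken, or at a tie in both motifs the first by position. The Cdkn1a window shown was thus picked for its p53 decamers. The window of the other Cdkn1a start held the RBPJ core and no p53 decamer. The windows of the 2 Psrc1 starts begin at 108383554 and 108383588, so they overlap. They share the same RBPJ core, and neither held a p53 decamer. Over the 26 of 33 members with a window, 11 (42.3%) held a p53 decamer in at least 1 window, against 8.20% of 27025 genes, and 12 (46.2%) held the RBPJ core, against 24.1%. Many p53 response elements lie outside such windows, in introns or further upstream, and a match is a description of the letters, not evidence of binding.

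Regulators of p53 outside the 33 were read from a list of 25 genes (24 in the table, 21 tested), chosen, like the lists below, with earlier results of these data known. In Ctrl against WT, 2 rose (Cdkn2a, Bcl6) and 1 fell (Hipk2), where 7.01% of all tested genes were called higher and 3.04% lower. The median log2FC was 0.47, or 0.22 with median-ratio scaling, and 0.19 without WT 2. With the replicate block 4 were higher and 1 lower. Cdkn2a (chr4:89274471-89294653, minus strand) was almost silent in WT, with 1, 4 and 0 reads, and had 114, 226 and 158 reads in Ctrl and 208, 137 and 379 in Arid1a_Het. In FPKM that was 0.0367, 0.130 and 0 against 4.29, 6.54 and 4.99 in Ctrl and 6.19, 4.13 and 11.1 in Arid1a_Het. No library of WT came near any library with NICD. The fitted log2FC of 2.56 (SE 0.29; adjusted p = 0.00203 in limma) depends on the pseudocount, since WT is near 0, and the gene entered the test only through the libraries with NICD. Cdkn2a encodes both p19Arf, which inhibits Mdm2, and p16Ink4a, a cyclin-dependent kinase inhibitor that does not act through p53, and values per gene cannot separate them. Bcl6, a transcriptional repressor that can silence Trp53, was at 0.752, 0.646 and 1.07 FPKM in WT and 2.32, 2.69 and 6.56 in Ctrl, with a log2FC of 1.32 (adjusted p = 0.0405 in limma). Hipk2, a kinase that activates p53, was at 8.56, 4.43 and 5.55 FPKM in WT, 2.66, 2.48 and 2.21 in Ctrl and 2.56, 2.76 and 1.74 in Arid1a_Het, and fell by 1.02 on the log2 scale in Ctrl (adjusted p = 0.0251 in limma). Cdkn2a was called without any 1 library. Bcl6 was not called without WT 1, 2 or 3 (adjusted p = 0.0728, 0.120 and 0.0787), without Ctrl 1, 2 or 3 (0.0572, 0.0681 and 0.114) or without Arid1a_Het 1 (0.0573). Its call also ended with median-ratio scaling (0.0538), quantile normalization (0.0820), limma voom (0.0547) and no filter (0.0812). Hipk2 was not called without WT 3 (0.0626) or without Ctrl 1, 2 or 3 (0.0702, 0.0703 and 0.0958), without both Ctrl 1 and Arid1a_Het 3 (0.0623), or with no filter (0.0568).

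**Figure D3:**
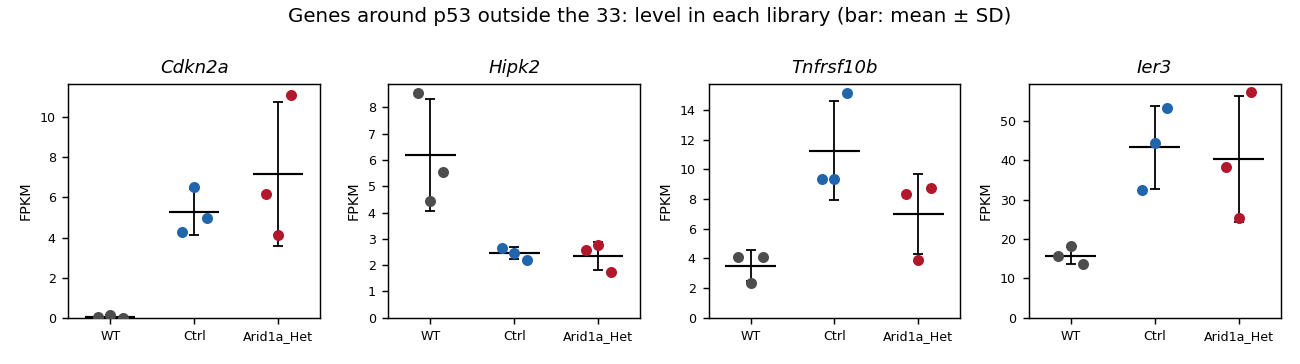
FPKM of 4 genes around p53 that are not among the 33, by group; each point is 1 library and bars give the mean ± SD (n = 3). Cdkn2a lies at or below 0.130 FPKM in all WT libraries and at 4.13 or above in all libraries with NICD, Ier3 at 13.7 to 18.1 in WT and 25.4 to 57.4 with NICD, and Hipk2 is lower in all libraries with NICD than in WT.

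A list of 19 further p53 targets (18 tested) split in direction in Ctrl against WT, with 3 higher and 3 lower and a median log2FC of 0.33, or 0.07 with median-ratio scaling and 0.22 without WT 2. With the replicate block 5 were higher and 4 lower. Tnfrsf10b, a death receptor for TRAIL, was at 4.10, 2.35 and 4.10 FPKM in WT and 9.32, 9.33 and 15.1 in Ctrl (log2FC 1.43, adjusted p = 0.0240 in limma). Ier3, an immediate early gene, was at 15.6, 18.1 and 13.7 FPKM in WT and 32.4, 44.4 and 53.2 in Ctrl (log2FC 1.38, adjusted p = 0.0206). Pml, the organiser of nuclear bodies, was at 9.58, 6.53 and 10.5 FPKM in WT and 14.1, 15.4 and 18.1 in Ctrl (log2FC 0.79, adjusted p = 0.0298). These 3 rose without overlap between the groups. The 3 that fell were Ak1, an adenylate kinase, at 13.8, 47.7 and 19.9 FPKM in WT and 1.33, 4.63 and 1.38 in Ctrl (log2FC -2.97, adjusted p = 0.0198), Sytl1 (log2FC -0.91, adjusted p = 0.0263) and the ferrireductase gene Steap3 (log2FC -0.80, adjusted p = 0.0354). Ak1 was highest in WT 2, the WT library with both the highest parietal marker sum and the highest share of Pgc. The part of either cell type was not tested. The count higher ran from 0 without Ctrl 2 or Ctrl 3 to 5 without Arid1a_Het 2 or Arid1a_Het 3, and was 1 without WT 2, WT 3 or Ctrl 1, and the count lower was 0 without WT 2, WT 3 or Ctrl 3 and 1 without WT 1, Ctrl 1 or Ctrl 2.

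p21 represses cell cycle genes through the DREAM complex, and a list of 20 such genes (20 tested) was read as the far end of the p53 to p21 axis. In Ctrl against WT 1 of them, Kif23, a kinesin of cytokinesis, rose, and 0 fell. Over all tested genes 7.01% were called higher. The median log2FC of the list was 1.02, or 0.79 with median-ratio scaling, and all 20 were above 0 with either, where all tested genes had a median of 0.24 and 71.3% above 0. The median rested in part on single WT libraries, at 0.47 without WT 2 and 1.49 without WT 1. Kif23 was at 11.6, 2.16 and 7.48 FPKM in WT, 31.4, 31.5 and 46.9 in Ctrl and 32.7, 9.89 and 30.8 in Arid1a_Het, with a log2FC of 2.41 (SE 0.55; adjusted p = 0.0267 in limma). WT 2 and Arid1a_Het 2 were the lowest of their groups. The count was 0 without WT 2, WT 3 or any 1 Ctrl library, 2 without Arid1a_Het 2, 4 with the replicate block and 9 without WT 1.

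The second comparison, Arid1a_Het against Ctrl, asks whether the Arid1a allele altered these levels where NICD was present. None of the 31 tested members was called in limma, with 0 higher and 0 lower. Over all 11209 tested genes 1 was called (0.00892%), Mir7688, which fell, so almost no gene of any kind was called. With limma voom on whole reads the count of members was 0 as well, and it was 0 under each of the other alternatives. At an unadjusted p under 0.05, 1 member was higher (Ccng1) and 5 lower (Mdm2, Mdm4, Psrc1, Ddb2 and Tigar), where all tested genes had 1.15% and 10.5%. The Arid1a_Het libraries lay wholly above Ctrl for 3 members and wholly below for 9, against 2.41% and 22.2% of all tested genes. The median log2FC was -0.19, with 24 of 31 members below 0, while all tested genes had -0.16 and 72.5% below 0. Without Arid1a_Het 2 the median was -0.09 for the members and for all tested genes. The size of this shift depended on the scaling. The median was -0.03 with median-ratio scaling, with 17 of 31 below 0. With totals that leave out the 50 highest genes it was -0.15, with 23 of 31 below 0. Only quantile normalization, of these 3, turned its sign, to 0.04. This comparison and the first share the Ctrl libraries and are not independent of each other.

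The intervals show which changes these libraries leave room for. For 23 of 31 members the 95% interval of the log2FC lay within 1 of 0, so that a change of 2-fold on that scale was outside it, and for the other 8 it was not. Phlda3, at 13.9, 15.6 and 21.9 FPKM in Ctrl and 23.2, 9.86 and 51.0 in Arid1a_Het, overlapped between the groups and had a wide interval, from -0.65 to 1.49 around a log2FC of 0.42 (adjusted p = 0.700 in limma). Its direction rested on Arid1a_Het 3: without that library the log2FC was -0.14. Bax had a log2FC of -0.24 (interval -0.73 to 0.24), Plk2 -0.37 (interval -0.81 to 0.08; every Arid1a_Het library below every Ctrl library) and Psrc1 -0.59 (interval -1.16 to -0.01; adjusted p = 0.425 in limma). Cdkn1a had a log2FC of 0.03 (interval -0.36 to 0.43) and p = 0.7 in the exact permutation test. Its 3 levels in Arid1a_Het, 100.4, 95.6 and 126 FPKM, overlapped those in Ctrl, 99.2, 92.5 and 123.

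Trp53 and its regulators in the set had a log2FC below 0 in Arid1a_Het against Ctrl, and none passed; with median-ratio scaling this stayed so for Trp53, Mdm2 and Mdm4. Trp53 was lower in all 3 Arid1a_Het libraries than in any Ctrl library, with a log2FC of -0.37 (interval -0.95 to 0.20; adjusted p = 0.558 in limma; p = 0.1 in the exact permutation test). Mdm2 was also lower without overlap, with a log2FC of -0.53 (interval -1.02 to -0.03; adjusted p = 0.414 in limma; p = 0.1 in the exact permutation test). Mdm4 had the lowest log2FC of the members, -1.02 (interval -1.79 to -0.25; adjusted p = 0.397 in limma), from 5.13, 4.29 and 7.94 FPKM to 3.64, 1.47 and 2.03. Ddb2 was at 3.74 to 4.15 FPKM in Ctrl and 1.55 to 3.13 in Arid1a_Het, and Tigar at 8.23 to 12.2 and 5.57 to 8.09. In the other direction, Ccng1 was at 48.5 to 50.3 FPKM in Ctrl and 53.3 to 70.7 in Arid1a_Het, and Perp at 182 to 207 and 236 to 272, both without overlap.

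**Figure D4:**
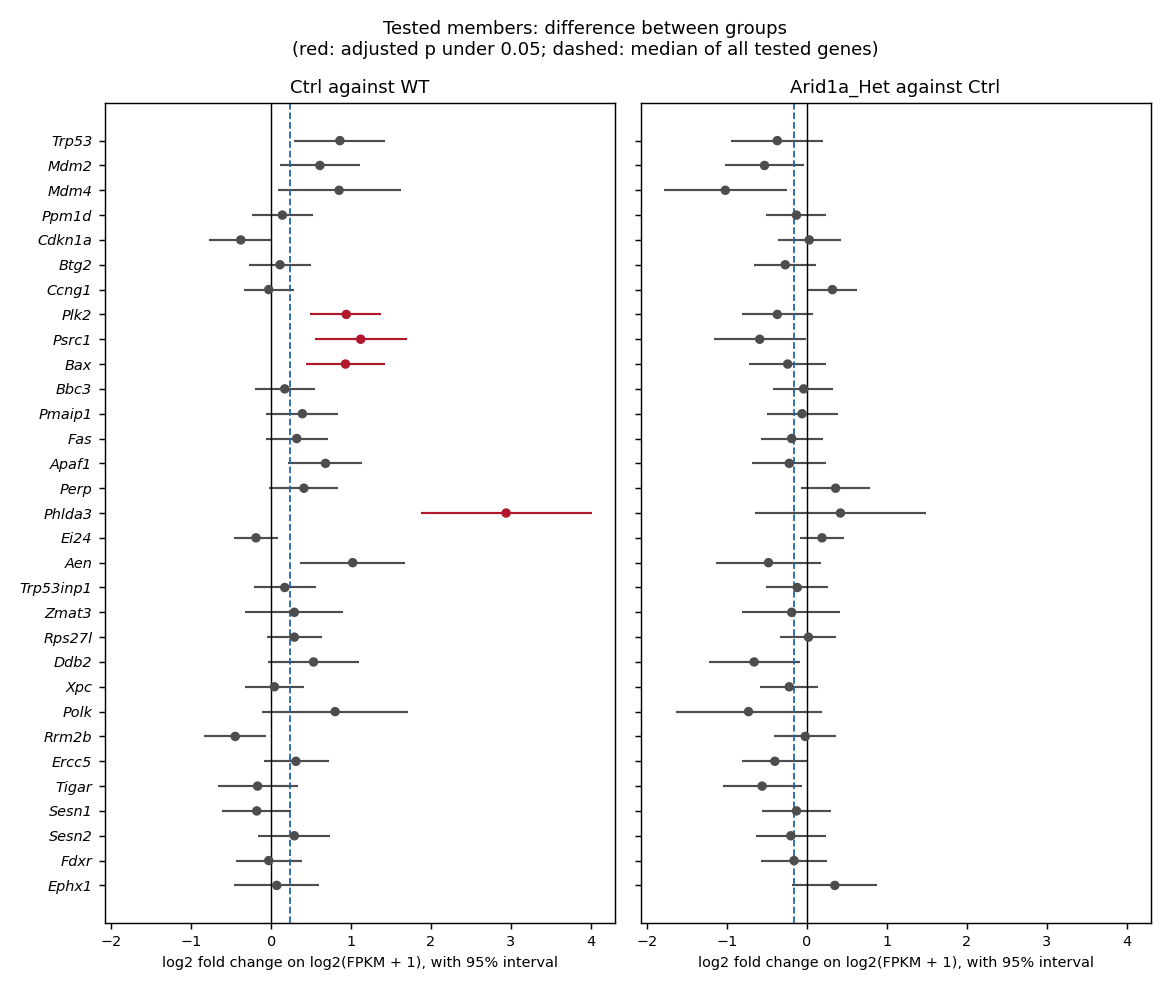
log2FC with its 95% interval for the 31 tested members in Ctrl against WT (left) and Arid1a_Het against Ctrl (right), red where the adjusted p is under 0.05; the dashed line marks the median of all tested genes, 0.24 on the left and -0.16 on the right. The 4 red points, Phlda3, Plk2, Psrc1 and Bax, are all on the left, and on the right most intervals cross 0.

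None of the other lists held a called gene in Arid1a_Het against Ctrl in limma (0 of 21 regulators, 0 of 18 further targets and 0 of 20 DREAM targets), and at an unadjusted p under 0.05 they held 0 higher and 2, 2 and 1 lower. The regulators of lowest p were Crebbp, an acetyltransferase for p53, at 4.23, 3.72 and 4.56 FPKM in Ctrl and 2.43, 1.87 and 2.20 in Arid1a_Het (log2FC -0.71, adjusted p = 0.352), and Trp53bp1, which encodes the DNA break sensor 53BP1 (log2FC -0.60, adjusted p = 0.404). Among the further targets these were Pidd1, a death domain protein that reached 1 FPKM in Ctrl but in no Arid1a_Het library (log2FC -0.61, adjusted p = 0.426), and the ubiquitin ligase gene Trim13 (log2FC -0.36, adjusted p = 0.427). All 20 DREAM targets had a log2FC below 0, with a median of -0.48, where 72.5% of all tested genes were below 0. With median-ratio scaling 18 of 20 were below 0, with a median of -0.29, and without Arid1a_Het 2 also 18 of 20, with a median of -0.22. Mki67, the Ki-67 proliferation antigen, was at 31.0, 22.3 and 27.0 FPKM in Ctrl and 17.0, 4.21 and 8.43 in Arid1a_Het (log2FC -1.52, adjusted p = 0.475), and Cenpa, a centromeric histone, had a log2FC of -0.54 (adjusted p = 0.414).

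The third comparison, Arid1a_Het against WT, shows which of the differences seen with NICD were also called when the Arid1a allele was added. Of 31 tested members 1 rose, Phlda3, and 0 fell, where 2.06% of all tested genes were called higher and 0.687% lower, or 2.75% in either direction. The log2FC was above 0 for 20 of 31 members and for 53.4% of all tested genes. At an unadjusted p under 0.05, 4 were higher and 2 lower, against 9.81% and 7.38%. The Arid1a_Het mean of Phlda3 was 20.5 times the WT mean, with a log2FC of 3.36 (SE 0.48; adjusted p = 0.00849 in limma), and its lowest library, at 9.86 FPKM, was above the highest of WT, at 1.88. It was called without any 1 library and missed the threshold with limma voom on whole reads (adjusted p = 0.0572). Plk2 and Bax did not overlap between Arid1a_Het and WT but were not called (log2FC 0.57 and 0.69, adjusted p = 0.171 and 0.134). Psrc1 overlapped (log2FC 0.53, adjusted p = 0.332). That these 3 passed in Ctrl and not in Arid1a_Het does not show a difference between those groups, for which the second comparison is the test.

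In the core of the pathway no gene was called in Arid1a_Het against WT. Trp53 had a log2FC of 0.48 (adjusted p = 0.388 in limma; p = 0.3 in the exact permutation test), Mdm2 0.08 (adjusted p = 0.909) and Mdm4 -0.17 (adjusted p = 0.873), and all 3 overlapped with WT. The sign for Mdm2 and for Mdm4 turned when single libraries were left out. Cdkn1a had a log2FC of -0.35 (adjusted p = 0.356 in limma; p = 0.2 in the exact permutation test). Perp was at 197, 117 and 142 FPKM in WT and 253, 236 and 272 in Arid1a_Het, a log2FC of 0.77 (adjusted p = 0.0741 in limma) that passed with median-ratio scaling. Tigar was at 14.8, 9.12 and 12.5 FPKM in WT and 8.09, 5.57 and 6.99 in Arid1a_Het, a log2FC of -0.73 (adjusted p = 0.122 in limma) that passed with median-ratio scaling and quantile normalization. Of the regulators Cdkn2a rose (log2FC 2.86, adjusted p = 0.00206 in limma) and Hipk2 fell (log2FC -1.07, adjusted p = 0.0405). Of the 18 further targets 0 passed in limma, with 4 higher and 5 lower at an unadjusted p under 0.05 and 0 called with limma voom. Those of lowest p were Ier3, at 38.3, 25.4 and 57.4 FPKM in Arid1a_Het (log2FC 1.23, adjusted p = 0.0573), and Ak1, at 3.27, 10.5 and 1.61 (log2FC -2.29, adjusted p = 0.0854), neither of which overlapped with WT. Without Arid1a_Het 2, 3 were called higher and 1 lower. Hipk2 was called without WT 2 or Arid1a_Het 2 but not without any other library. Among the DREAM targets 0 of 20 passed in limma, and 1 was higher at an unadjusted p under 0.05, with Kif23 at a log2FC of 1.70 (adjusted p = 0.141) and E2f1, a transcription factor for S phase, at 0.59 (adjusted p = 0.323).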

How the data were processed

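Poly(A) RNA of 9 libraries was prepared with a stranded kit, per the labels' protocols, aligned with STAR 2.4.2a to GRCm38, also named as mm10, per the submitters' processing notes. The authors deposited FPKM values per gene; the counting tool, its strand setting and its treatment of reads with several matches are not given in the sources used here. Whole reads were recovered from the FPKM steps, with all genes whole within 0.01, and used for depth and for 1 alternative.

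The 3 groups were fitted together in limma 3.58.1 (R 4.3.3; lmFit, eBayes with an intensity trend) on values as log2(FPKM + 1), with no covariate. Genes that reached 1 FPKM in 3 or more libraries were tested (11209; 7214 were not), and Benjamini-Hochberg adjustment covered all of them. Trp53, Cdkn1a, Mdm2 and Arid1a also had an exact permutation test. The members and lists were chosen with earlier results of these data known. A gene of the list of further targets is not reported here and was taken out of that list's counts. All members were named, with Arid1a and, of each other list, the called genes (up to 4 of lowest p in a direction) or the 2 of lowest p where none was called. The block fit treated same-numbered libraries of all 3 groups as matched. Deviations from the group mean correlated between same-numbered WT and Ctrl libraries (0.207, 0.336 and 0.138, each over 0.1). Reading WT and Ctrl as pairs rests on these data alone, as no label states it. Scaling, filter, pseudocount, model and left-out libraries were varied. Positions are from GENCODE on GRCm38 and promoters from RefSeq on GRCm38.p6. Scripts were tested on simulated data.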

Additional observations from a re-analysis of the deposited data

How the results depend on the processing

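With 3 libraries a group, an exact test of 1 gene cannot go below p = 0.1, and leaving out WT 2, WT 3 or any 1 Ctrl library took the members called in Ctrl against WT from 4 to 1 or 2. Phlda3 (Ctrl against WT) and Cdkn2a (both comparisons with WT) were called under every alternative, and members stayed at 0 calls in Arid1a_Het against Ctrl under all of them; adjusted p in Ctrl against WT reached 0.0859 for Plk2, 0.105 for Psrc1 and 0.0978 for Bax. In the counts that follow, "regulators", "targets" and "DREAM" are the 3 other lists and "all" is all tested genes.

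Ctrl against WT gave 786 higher and 341 lower over all tested genes. With no filter, members higher were 2, regulators higher 1 and lower 0, and DREAM higher 0. With a minimum FPKM of 5, regulators higher were 1 and lower 0, and all 748. With median-ratio scaling regulators higher were 1. With quantile normalization members lower were 1 (Rrm2b) and regulators higher 1. With limma voom regulators higher were 1. Without Ctrl 1 and Arid1a_Het 3, an alternative chosen with earlier results of these data known, as was voom, members higher were 2, regulators lower 0, DREAM higher 0 and all 707. Array weights, whose fit did not converge, gave members higher 14 and lower 3, regulators higher 12, targets higher 9 and lower 5, DREAM higher 18 and all 5710. With only the 2 groups targets higher were 5. With the replicate block members higher were 9, regulators higher 4, targets higher 5, DREAM higher 4 and all 2473. Leaving out 1 library gave members higher 1 to 7, regulators higher 1 to 3 and lower 0 to 1, targets higher 0 to 5 and lower 0 to 3, DREAM higher 0 to 9 and all 260 to 1465.

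Arid1a_Het against Ctrl gave 1 gene over all tested genes, against 0 with a pseudocount of 0.1 or voom, 4 with no filter, 2 with a minimum FPKM of 5, quantile normalization or the replicate block, 5 with only the 2 groups, 7 with array weights, 21 without Ctrl 1 and Arid1a_Het 3, and 1 to 22 with 1 library left out.

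Arid1a_Het against WT gave 231 higher and 77 lower. With no filter, regulators lower were 0 and all 140. With a minimum FPKM of 5 regulators lower were 0. With median-ratio scaling members higher were 2 (Perp, Phlda3) and lower 1 (Tigar), and with quantile normalization members lower 1. With only the 2 groups, regulators lower were 0 and all 105. With voom members higher were 0. Without Ctrl 1 and Arid1a_Het 3, regulators lower were 0 and all 115. Array weights gave members higher 4 and lower 1, regulators higher 3, targets higher 3 and lower 2, DREAM higher 1 and all 1384. With the replicate block members higher were 2 and lower 1, regulators higher 2, targets higher 1 and lower 2, DREAM higher 1 and all 691. Leaving out 1 library gave members higher 1 to 2, regulators lower 0 to 1, targets higher 0 to 3 and lower 0 to 1, DREAM higher 0 to 1 and all 91 to 720.

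Same-numbered libraries of Arid1a_Het and Ctrl had correlations of -0.151, 0.467 and -0.0202, and those of Arid1a_Het and WT 0.252, 0.563 and -0.279, so the block is no pairing there. In Ctrl against WT, where same-numbered libraries correlated but no label states a pairing, the block ended no call that the report names. The block fit also tied the Arid1a_Het libraries by number. Signs turned for values that had missed the threshold. In Arid1a_Het against Ctrl, the log2FC of Cdkn1a was -0.12 and of Phlda3 -0.27 without Ctrl 1 and Arid1a_Het 3; with 1 library left out Cdkn1a ran from -0.09 to 0.15, turning without Arid1a_Het 3, Ctrl 2 (-0.05) or Ctrl 1 (0.00), and Phlda3 from -0.14 without Arid1a_Het 3 to 0.99. In Arid1a_Het against WT, Mdm2 ran from -0.07 to 0.30, turning without Arid1a_Het 1 or WT 2 (-0.05), and Mdm4 from -0.50 to 0.04, turning without WT 3 or Arid1a_Het 2 (0.03). The cause of these changes was not tested.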
